A study of Mus musculus with 49 samples.

Results

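Intracisternal A particle (IAP) insertions are the single copies of the mouse IAP retrotransposon that are annotated across the genome. The insertions described here carry a name that starts with IAP and were read at least once in 25% or more of the TBP experiment's embryos that reached 500000 counted reads, which means in 5 or more of 18 embryos. Of 29807 annotated IAP insertions, 321 met this rule. They were 290 of 14211 long terminal repeats (LTRs, 2.04%) and 31 of 15596 internal parts (0.199%). The LTR and internal parts carry separate names and were described apart. At the edge of the rule, 90 LTR insertions were read in just 5 embryos, with a median of 13 reads in all, and 105 in 4 embryos, with a median of 11, were left out. Of internal insertions 8 were read in 5 embryos (median 6.5 reads) and 38 in 4 (median 7.5).

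IAP elements belong to the ERVK class of endogenous retroviruses. A complete copy has an LTR at each end, which holds the promoter and the polyadenylation signal, and an internal part that encodes the gag and pol proteins of the particle. Recombination between the LTRs removes the internal part and leaves a solitary LTR, so a genome holds many LTRs without a body. In mouse cells IAP copies are silenced by KRAB zinc finger proteins that recruit TRIM28 and the histone methyltransferase SETDB1, and by DNA methylation, and IAP transcripts are known from the preimplantation embryo.

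The embryos were F1(C57BL/6JxCBA/H) and were analysed singly at the late 2-cell stage, 48 h post-hCG, by Smart-seq+5', an RNA-seq method that reads the 5′ ends of transcripts besides internal fragments, of which the counts used here hold the 5′ reads. Zygotes received an antibody against TBP (TBP LOF, 9 embryos) or mouse IgG (CONTROL, 10 embryos) and, 4 h later, mRNA for TRIM21, the ubiquitin ligase that directs antibody-bound protein to degradation (Trim-Away). Both groups therefore carried an injected antibody and TRIM21, and they differed in what the antibody bound. A second experiment in the series of 49 embryos used an antibody against FOXJ3 (17 embryos) or rabbit IgG (13 embryos) in the same way, in 2 processing batches. The TBP embryos came from 3 collections that were processed at once, and which collection an embryo belonged to was not given in the labels, so collection could not enter a fit.

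In the TBP experiment 18 embryos, 9 in each group, passed quality control, with between 1160150 and 5434808 counted reads; CONTROL 7, with 464300, did not. The Tbp transcript was lower in LOF embryos, at a normalized count of 77.0 ± 50.8 (SD, n = 9) against 338 ± 149 (SD, n = 9), a log2 fold change of −2.14 (edgeR adjusted p = 5.28e-06). Trim-Away acts on the protein, whose level these counts do not give. A normalized count here is the read count divided by the embryo's size factor from 42 ERCC spike-in transcripts, so it follows RNA per embryo. LOF 7 and LOF 11 had the highest share of spike-in reads, 6.12% and 6.03%, and calls of named IAP families, IAP insertions and silencing genes that were lost without them are named. Among 7 late 2-cell markers none passed as lower and Usp17lc was higher (log2 fold change 1.38, edgeR adjusted p = 0.00516). Zscan4c (−1.24), Tdpoz4 (−0.72) and Obox3 (−0.51) were negative, Zscan4d (0.15), Eif4e3 (0.25) and Zfp352 (0.52) were positive, and none of these passed. With TMM, a scaling described below, 3 of the 7 were higher, Usp17lc (2.08), Zfp352 (1.33) and Eif4e3 (1.07), and none was lower. Of 7 cumulus cell markers, Has2, Ptx3 and Inhba were at 0 in all embryos and Tnfaip6 was lower (log2 fold change −2.46, edgeR adjusted p = 0.00866). Their summed normalized count was 1.46 to 9.53 in LOF and 3.61 to 45.5 in CONTROL, and its part in the IAP results was not tested. Of 5 oocyte transcripts 1, Zp3, was lower (log2 fold change −1.83, edgeR adjusted p = 2.29e-05), and their sum was 1762 to 5653 in LOF and 1560 to 5164 in CONTROL. With TMM Gdf9, Bmp15 and Oosp1 were higher (0.99, 1.46 and 1.01) and Zp3 was lower. Without LOF 7 and LOF 11 Bmp15 was higher (0.88, edgeR adjusted p = 0.0165) and Zp3 was still lower.

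The study also used a primer pair, taken from earlier publications, for IAPEz, an evolutionarily young IAP family. It measured IAPEz by RT-qPCR in mouse embryonic stem cells that overexpressed single transcription factors. The pair is shown because it is the sequence through which this series names IAP outside the read counts, and it was written 5′ to 3′ in lower case.
iapez_frd: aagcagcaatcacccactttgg
iapez_rev: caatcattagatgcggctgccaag

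Among 141767 annotated mouse transcripts (GENCODE M21, GRCm38), the reverse primer was found in 1, Noct-202, and the forward primer in 4, of which Noct-202 was also 1. In Noct-202 the primers lie in the first exon of a plus-strand transcript, at chr3:51242320-51242341 and chr3:51242393-51242416, and span 97 bases of it. Noct encodes nocturnin, a protein of circadian and metabolic control, and its gene count was 55.4 ± 33.6 (SD, n = 9) in LOF and 87.4 ± 27.5 (SD, n = 9) in CONTROL. That difference, a log2 fold change of −0.66 ± 0.34 (SE), did not pass the test (edgeR adjusted p = 0.142). The forward primer also matched Gm42860-201 and, on the opposite strand, D10Wsu102e-201 and Slc38a6-208. A match is a description of shared letters; genome copies outside annotated transcripts were not searched, and the position of each insertion was in none of the sources used here. Insertions are therefore named by family and copy number as the count tables write them.

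Per embryo, the summed reads of all IAP LTR families did not separate the groups. The normalized sum was 346 at the lowest (LOF 7), 902 at the median and 2006 at the highest (LOF 6) in LOF embryos, and 853 (CONTROL 2), 1196 and 2272 (CONTROL 10) in CONTROL embryos. The groups overlapped, although the CONTROL median lay above 7 of 9 LOF embryos. The means were 947 ± 528 (SD, n = 9) and 1393 ± 516 (SD, n = 9), a log2 ratio of −0.56. The sums are per whole embryo at the late 2-cell stage, and RNA in single cells was not measured. P-values in this report set the difference between groups against the spread between single embryos, which the fits take as independent.

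The internal families followed the same order, at 277 ± 174 (SD, n = 9) in LOF and 369 ± 134 (SD, n = 9) in CONTROL, a log2 ratio of −0.41. LOF 11 was lowest at 73.9, the LOF median was 240 and LOF 6 was highest at 620, against 229 (CONTROL 3), 349 and 595 (CONTROL 10). Again the CONTROL median exceeded 7 of 9 LOF embryos and the ranges overlapped. As a share of each embryo's own counted reads, IAP did not differ by more than the spread, at 0.0770% ± 0.0356 (SD, n = 9) in LOF and 0.0764% ± 0.0234 (SD, n = 9) in CONTROL. LOF 6 had the highest share, 0.159%. The spike-in share was 4.29% ± 1.19 (SD, n = 9) in LOF and 2.76% ± 0.372 (SD, n = 9) in CONTROL, so the IAP sums were lower per spike-in and level per counted read.

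**Figure D1:**
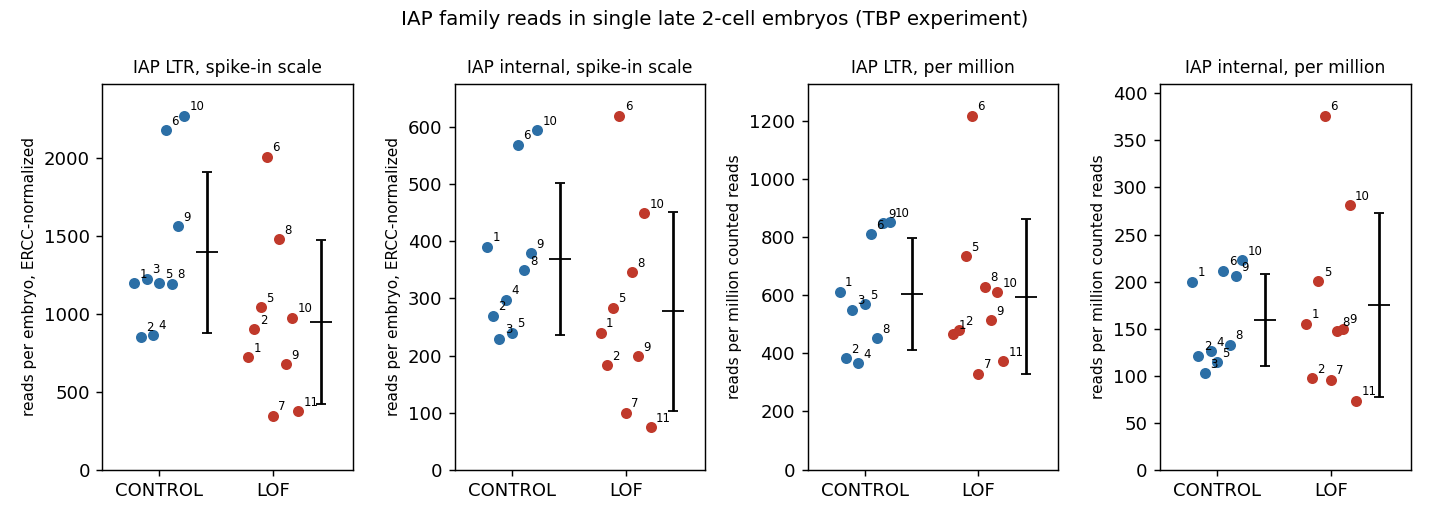
IAP reads of each TBP LOF and CONTROL embryo for LTR families and internal families apart, on the spike-in scale (left pair of panels) and as a rate per counted read (right pair, scaled as the axis says); one numbered point per embryo, bars give the mean and SD, n = 9 a group. On the spike-in scale LOF 6 stands at 2006 for LTRs and 620 for internal parts, inside or near the CONTROL range, and the other LOF embryos reach down to 346 and 73.9.

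The balance of LTR to internal reads was alike in both groups. Each internal read came with 3.69 ± 0.928 LTR reads in LOF and 3.85 ± 0.849 in CONTROL (SD, n = 9 each). The table of single insertions accounted for 85.4% ± 4.49 (SD, n = 9) of the family-level IAP reads in LOF and 84.1% ± 5.81 (SD, n = 9) in CONTROL. The 321 insertions held 48.6% ± 8.18 (SD, n = 9) and 45.5% ± 3.60 (SD, n = 9) of them. Among the LTR insertions, the 10 most read in an embryo held 36.6% ± 8.03 (SD, n = 9) of that embryo's reads in LOF and 33.8% ± 3.39 (SD, n = 9) in CONTROL. An embryo had reads on 120 ± 29.0 (SD, n = 9) of the 290 LTR insertions in LOF and on 127 ± 28.7 (SD, n = 9) in CONTROL.

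At the level of families, 3 of 25 IAP families were lower after TBP LOF and none was higher (12%), where 31.1% of all 19357 genes and TE families tested passed (29.7% lower and 1.34% higher). Without LOF 7 and LOF 11 it was 1 family, lower, against 24.6% lower and 2.05% higher of all. All 3 were among the 15 LTR families, and none of the 10 internal families passed. The median log2 fold change was −0.40 over the IAP families, −0.90 over all 909 TE families and −0.89 over 245 ERVK families not named IAP. The median over all genes and families was −0.72 with spike-in scaling and 0.11 with TMM, and the family and gene changes below are to be read beside it. TMM is a scaling on the bulk of the reads that removes a shift shared by most genes. With TMM the IAP median was 0.34, with 6 of 25 families negative, where 17 were negative with spike-ins. It was −0.12 over all TE families and −0.11 over the other ERVK families. Without LOF 7 and LOF 11 the spike-in median was −0.13 over the IAP families and −0.53 over all features.

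IAP1-MM_LTR, the LTR of the IAP1 family, was lower in LOF embryos on both scalings in direction. Its normalized count was 4.30, 10.3 and 61.6 (lowest, median and highest) in LOF and 21.7, 39.4 and 77.9 in CONTROL. LOF 6 and LOF 8 were inside the CONTROL range, and the other 7 LOF embryos lay below the lowest CONTROL embryo. The means were 18.5 ± 18.3 (SD, n = 9) and 46.8 ± 20.4 (SD, n = 9), with a log2 fold change of −1.39 ± 0.41 (SE) and adjusted p = 0.00583 (edgeR). Without LOF 7 and LOF 11 it was −1.10 (adjusted p = 0.0309), and with TMM it was −0.60 and did not pass (adjusted p = 0.186). Its share of each embryo's IAP reads, which depends on neither scaling, was 1.32% ± 0.48 (SD, n = 9) in LOF and 2.65% ± 0.77 (SD, n = 9) in CONTROL.

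IAPLTR1a_Mm and IAPLTR2_Mm, LTR families that flank IAP bodies, were also lower. IAPLTR1a_Mm was at 35.6, 75.5 and 195 in LOF and 56.9, 160 and 391 in CONTROL, and the groups overlapped over most of their range. Its log2 fold change was −1.01 ± 0.36 (SE, edgeR adjusted p = 0.0239), and −0.78 without LOF 7 and LOF 11, where it did not pass (adjusted p = 0.110). It also missed the threshold when LOF 1, LOF 7, CONTROL 6, CONTROL 9 or CONTROL 10 alone was left out (adjusted p of 0.0522 to 0.0782). IAPLTR2_Mm was at 27.8, 78.4 and 171 in LOF and 88.5, 126 and 281 in CONTROL, with 7 LOF embryos below the lowest CONTROL embryo and LOF 6 and LOF 8 above it. Its log2 fold change was −0.83 ± 0.33 (SE, edgeR adjusted p = 0.0443), and −0.58 without the same pair of embryos (adjusted p = 0.160). The call was lost in 11 of 18 fits that left out 1 embryo (LOF 1, 2, 5, 7, 9, 10 or 11, or CONTROL 1, 3, 5 or 6), with adjusted p of 0.0526 to 0.136. With TMM both were near 0, at −0.21 and −0.074.

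The LTR and internal families with the most reads did not pass the test with spike-in scaling in the 18 embryos. IAPLTR1_Mm, with 7482 reads over the 18 embryos, had 63.3, 208 and 968 normalized reads in LOF and 158, 409 and 1219 in CONTROL, a log2 fold change of −0.73 ± 0.36 (SE, edgeR adjusted p = 0.128). LOF 6 was the highest LOF embryo, and the groups overlapped. IAPEz-int, the body of the IAPEz family, had 38.6, 148 and 499 in LOF and 173, 237 and 439 in CONTROL, a log2 fold change of −0.56 ± 0.33 (SE, edgeR adjusted p = 0.212). LOF 6 lay above every CONTROL embryo and LOF 11 was the lowest of all. When LOF 6 alone was left out both families passed, IAPLTR1_Mm at −1.19 (adjusted p = 0.00550) and IAPEz-int at −0.91 (adjusted p = 0.0257), as did IAPLTR2b at −0.81 (adjusted p = 0.0470, all edgeR). IAPLTR2b also passed when LOF 8 alone was left out (−0.79, edgeR adjusted p = 0.0495). LOF 6 was the highest LOF embryo in each of these families, so leaving it out lowers the LOF mean by itself. These fits were picked out after the values were seen. With TMM in the 18 embryos IAPLTR1_Mm, IAPEz-int and IAPLTR2b were at 0.030, 0.21 and 0.12 and did not pass.

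IAPLTR2a2_Mm had nearly equal means with spike-in scaling. It was at 83.5, 217 and 454 in LOF and 146, 191 and 467 in CONTROL, and the groups overlapped throughout. The log2 fold change was 0.048 ± 0.30 (SE, edgeR adjusted p = 0.932) with spike-ins, and 0.88 with TMM, which passed (adjusted p = 0.00559). Its share of each embryo's IAP reads was 21.3% ± 7.04 (SD, n = 9) in LOF and 13.3% ± 3.32 (SD, n = 9) in CONTROL. IAPLTR1_Mm held 21.8% ± 8.52 (SD, n = 9) and 26.5% ± 8.14 (SD, n = 9).

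With spike-ins 6 of the 10 internal families were negative and 4 positive, namely IAPEy-int, IAPEY5_I-int (0.39), IAPEY3-int and IAP-d-int (0.12), and none passed. IAPEy-int had a log2 fold change of 1.03 ± 0.59 (SE, edgeR adjusted p = 0.192) with spike-ins and 1.72 with TMM, which passed (adjusted p = 0.0176). IAPEY3-int was at 0.22 (adjusted p = 0.771) and 1.12 (adjusted p = 0.0357). With TMM 3 of 25 IAP families were higher and none was lower, where 12.8% of all genes and families were higher and 12.7% lower. The other internal families had between 39 and 307 reads in all, apart from IAPEz-int with 4212. Without IAPEz-int, their standard errors with spike-ins were 0.47 to 0.85 on the log2 scale, and a change of that size lies within such an error. How read depth bears on this was not tested.

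**Figure D2:**
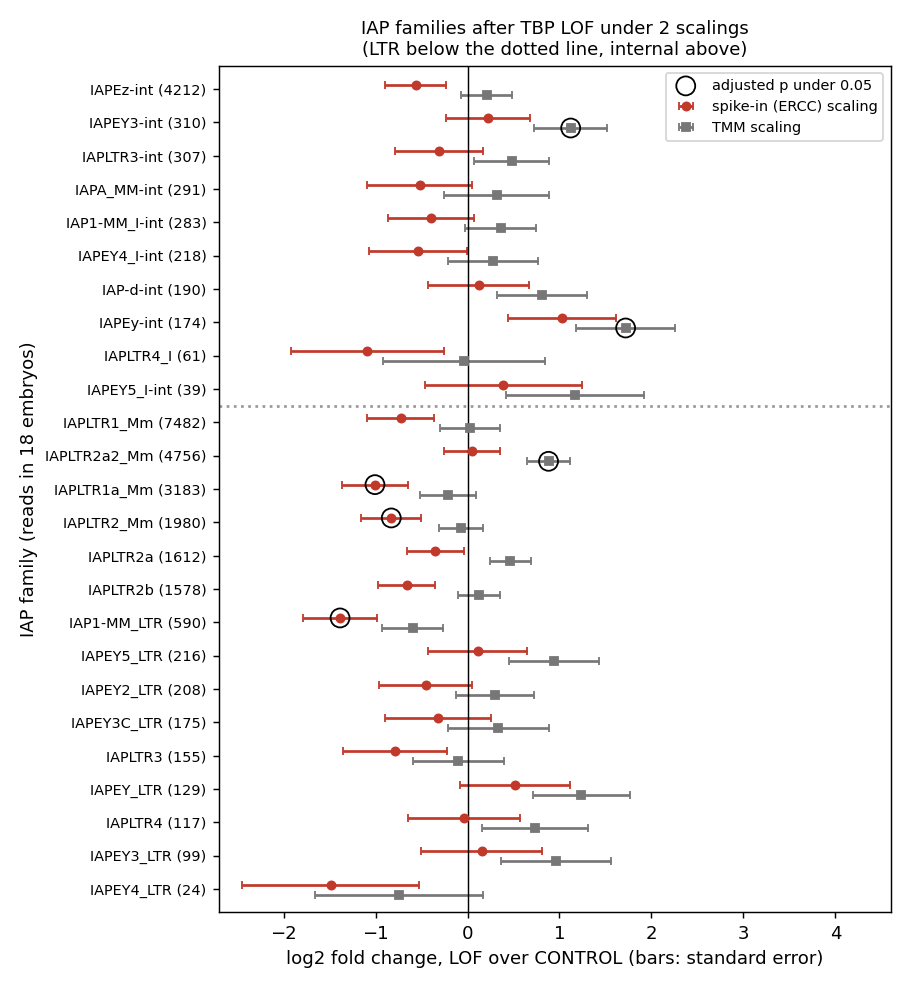
Log2 fold change of each of 25 IAP families in TBP LOF over CONTROL embryos (horizontal axis; bars are the standard error), with spike-in scaling in red and TMM in grey; rings mark adjusted p under 0.05 and the number after each name is its reads in 18 embryos. IAP1-MM_LTR, IAPLTR1a_Mm and IAPLTR2_Mm are ringed at −1.39, −1.01 and −0.83 with spike-ins, and IAPLTR2a2_Mm, IAPEy-int and IAPEY3-int at 0.88, 1.72 and 1.12 with TMM.

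The 290 LTR insertions came from all 15 LTR families, unevenly. IAPLTR1_Mm gave 100 of them, or 65.3 for each 1000 annotated copies, IAPLTR2a2_Mm gave 69 (43.3 for each 1000), and IAPLTR1a_Mm, IAPLTR2_Mm and IAPLTR2b gave 25, 23 and 23. In contrast IAPEz-int gave 14 insertions of 7556 annotated copies, 1.85 for each 1000, and IAPEY5_I-int and IAPLTR4_I gave none. The reads behind these families were spread differently too. Of the 7482 IAPLTR1_Mm family reads, 53.3% lay on its 100 insertions, and of the 4756 IAPLTR2a2_Mm reads 70.7% lay on 69. Of the 4212 IAPEz-int reads, 76.3% were placed on some insertion but 5.08% on the 14 that met the rule.

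Most single insertions were read thinly. The median LTR insertion had 24.5 reads over the 18 embryos (range 5 to 526), 215 of 290 had under 50, and 6 were read in every embryo. The median internal insertion had 17 reads (range 5 to 136), 27 of 31 had under 50, and none was read in every embryo. In 42 LTR insertions a single embryo held over 50% of the reads, and in 21 of these that embryo was CONTROL 9, the most deeply sequenced one. Because reads in either group could bring an insertion past the rule, an insertion read in a single group met it only through that group and had to differ. There were 5 LTR insertions with reads only in CONTROL and 1 with reads only in LOF, and all 6 are among those past the threshold below. For these, and for other insertions below that reached 5 embryos only in the group where they were high, values are given with no p.

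**Figure D3:**
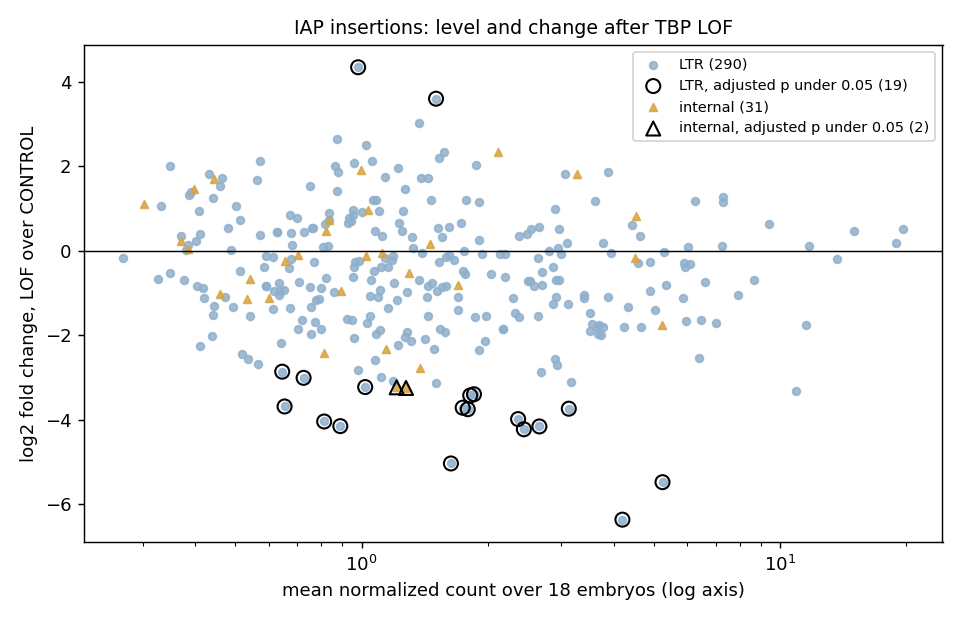
Log2 fold change (vertical axis, spike-in scaling) against mean normalized count (horizontal log axis) of the 290 LTR and 31 internal IAP insertions in TBP LOF over CONTROL embryos. The insertions past the adjusted p threshold of 0.05 lie mostly at low counts, from −6.36 to 4.35, and the 5 most read LTR insertions lie between −0.20 and 0.51.

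In the fit over 59208 genes and single TE insertions, 19 of 290 LTR insertions passed (6.55%), 17 lower and 2 higher, and 2 of 31 internal insertions passed (6.45%), both lower. The background was 15.3% of all features, 14.6% lower and 0.76% higher. Of these calls 5 lower and 1 higher were LTR insertions read in a single group, which the rule itself sets apart, and most others were read in few embryos of the group where they were low, so the counts are a description and no support for a difference. The median log2 fold change was −0.58 over the LTR insertions, with 188 of 290 negative, and −0.12 over the internal insertions, with 18 of 31 negative. Over all features it was −0.69, so the medians of both parts lay above that of the whole table. Among insertions with 5 to 50 reads the median was −0.48 over IAP and −0.79 over all TE insertions. With over 50 reads the order turned, at −0.69 over IAP and −0.51 over all TE insertions. With TMM 7 LTR insertions were lower and 3 higher and no internal insertion passed, against a background of 9.4% (6.76% lower and 2.64% higher). All 7 of those lower and 2 of those higher were also called with spike-ins. The TMM medians were 0.026 over the LTR insertions (144 of 290 negative), 0.45 over the internal insertions (12 of 31 negative) and −0.058 over all features. Without LOF 7 and LOF 11, 6 LTR insertions were lower, of which 5 were among the 17, 1 was higher, and 1 internal insertion was lower, against a background of 9.78% (8.99% lower and 0.79% higher).

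The 17 lower LTR insertions were copies of 7 families. IAPLTR1a_Mm had 5, IAPLTR1_Mm 4, IAPLTR2_Mm 3, IAPLTR2b 2, and IAPLTR2a, IAPLTR2a2_Mm and IAP1-MM_LTR 1 each. Set beside the insertions of each family that met the rule, this was 5 of 25 for IAPLTR1a_Mm, whose median was −1.35, and 1 of 69 for IAPLTR2a2_Mm, whose median was −0.0056. Of all features 14.6% were lower. The 5 IAPLTR1a_Mm copies were read in 1 or 2 LOF and 4 to 6 CONTROL embryos, and the IAPLTR2a2_Mm copy in no LOF embryo. They met the rule mainly through CONTROL, so the counts are a description and no support for a difference between families. IAP1-MM_LTR had a median of −1.43 over 12 insertions, 11 of them negative, IAPLTR2_Mm −1.14 over 23 and IAPLTR1_Mm −0.82 over 100, 71 of them negative.

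IAPLTR2b_dup646 had no read in any LOF embryo and 72 reads in 8 of 9 CONTROL embryos. The CONTROL values ran from 0 (CONTROL 5) over a median of 5.43 to 21.9 normalized counts, with a mean of 8.39 ± 7.74 (SD, n = 9). In reads pooled over these embryos it was at least 35.5-fold lower in LOF, taking 3 counts over the whole group as the limit that a count of 0 allows. This limit leaves out the spread between embryos, and the insertion met the rule only through CONTROL. The groups touched only at the 0 of CONTROL 5. IAP1-MM_LTR_dup140 and IAPLTR2_Mm_dup416 were likewise at 0 in LOF, with 28 and 11 reads in 6 CONTROL embryos each. They also met the rule only through CONTROL, and in pooled reads they were at least 13.8-fold and at least 5.42-fold lower by the same limit.

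IAPLTR1_Mm_dup262 was the single IAP insertion whose groups did not overlap, where 2.71% of all features did not. It ran from 0 to 1.45 normalized counts in LOF, with a median of 0, and from 1.69 over 4.99 to 11.9 in CONTROL. In LOF 4 embryos had 1 read each, and all 9 CONTROL embryos had at least 1, with 35 of the 64 CONTROL reads in CONTROL 9. The log2 fold change was −3.74 ± 0.88 (SE).

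IAPLTR1a_Mm_dup423 rested on a single embryo for most of its reads. It had 2 reads in LOF and 155 in CONTROL, and CONTROL 9 held 77.7% of all its reads. The values were 0, 0 and 0.73 in LOF and 0, 1.81 and 41.4 in CONTROL, and the groups overlapped at 0. Corrected for the spike-ins, the ratio of CONTROL to LOF reads was 114 (95% interval of counting error 31.2 to 954). Counting intervals and limits here cover counting error only and take reads pooled over embryos as independent counts. They leave out the spread between embryos and the copying of molecules in amplification, and are no test of a difference between the groups. Of the 19 called LTR insertions 7 had over 50% of their reads in a single embryo, and in 4 lower ones this was CONTROL 9.

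The 2 higher LTR insertions were IAPLTR2a_dup592 and IAPLTR1_Mm_dup965. IAPLTR2a_dup592 had 38 reads in 5 LOF embryos, of which LOF 11 held 76.3%, and none in CONTROL. In pooled reads it was at least 8.57-fold higher by the same limit of 3 counts, and it met the rule only through LOF. It was no longer past the threshold without LOF 11, or without LOF 7 and LOF 11. IAPLTR1_Mm_dup965 had 26 reads in 5 LOF embryos and 1 in CONTROL 2, a ratio of 17.6 (95% interval of counting error 2.89 to 722). Its values were 0, 0.73 and 12.6 normalized counts in LOF, highest in LOF 1, and 0, 0 and 1.35 in CONTROL, so the groups overlapped. It was no longer past the threshold in 12 of 18 fits that left out 1 embryo.

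**Figure D4:**
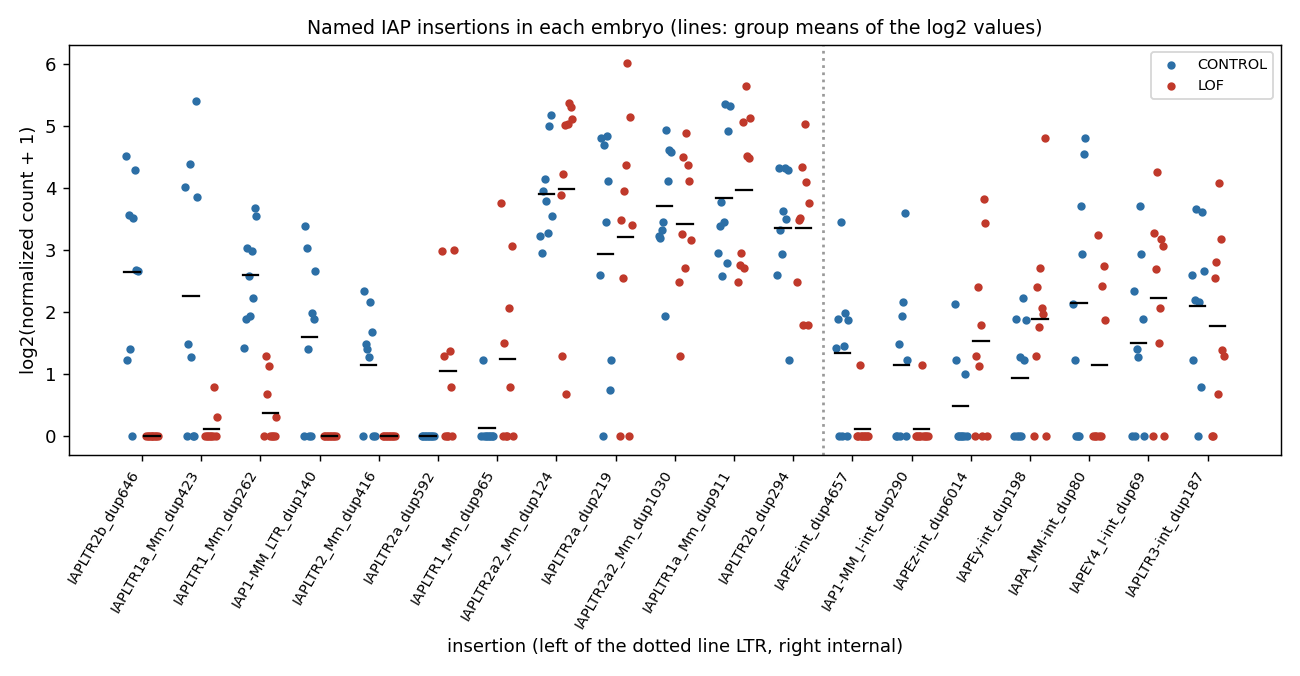
Log2 of the normalized count plus 1 of named IAP insertions in each TBP LOF and CONTROL embryo (one point per embryo, lines give the mean of these values, n = 9 a group). IAPLTR2b_dup646 is at 0 in all LOF embryos, IAPLTR1_Mm_dup262 does not exceed a normalized count of 1.45 in LOF and is at least 1.69 in CONTROL, and the most read insertions overlap between the groups.

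None of the 5 most read LTR insertions passed the test. IAPLTR2a2_Mm_dup124, with 526 reads, was at 0.61, 31.4 and 40.3 normalized counts in LOF and 6.77, 12.8 and 35.3 in CONTROL. Its means were 23.2 ± 15.3 (SD, n = 9) and 16.1 ± 10.2 (SD, n = 9), a log2 fold change of 0.51 ± 0.59 (SE, edgeR adjusted p = 0.634). The groups overlapped, and 7 of 9 LOF embryos exceeded the CONTROL median while LOF 2 and LOF 7 had 1 read each. IAPLTR1a_Mm_dup911, read in every embryo, was at 4.59, 21.3 and 49.2 in LOF and 4.99, 9.99 and 39.9 in CONTROL (log2 fold change 0.20 ± 0.58, SE, edgeR adjusted p = 0.875). The other 3, IAPLTR2a_dup219, IAPLTR2a2_Mm_dup1030 and IAPLTR2b_dup294, had log2 fold changes of 0.46, −0.20 and 0.10, with adjusted p of 0.784, 0.868 and 0.939 (edgeR). With TMM all 5 were positive, at 0.42 to 1.20, and none passed.

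Among well-read insertions, IAPLTR1_Mm_dup1003 stood apart in spread, and it is named after its values were seen. It had 1.86 ± 4.27 (SD, n = 9) normalized counts in LOF and 19.9 ± 36.8 (SD, n = 9) in CONTROL, and CONTROL 10 held 48.5% of its 167 reads. The log2 fold change of −3.32 did not pass (edgeR adjusted p = 0.0676).

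The 2 lower internal insertions were a copy of IAPEz-int and a copy of IAP1-MM_I-int, the body of IAP1. IAPEz-int_dup4657 had 2 reads, both in LOF 5, and 16 reads in 6 CONTROL embryos, with a CONTROL median of 1.74 and a maximum of 9.98 normalized counts (CONTROL 4). The CONTROL to LOF ratio was 11.8 (95% interval of counting error 2.78 to 106). IAP1-MM_I-int_dup290 had 2 reads, both in LOF 7, and 21 in 5 CONTROL embryos, of which CONTROL 8 held most, 65.2% of all its reads. Its ratio was 15.5 (95% interval of counting error 3.79 to 136). Both overlapped between the groups, since 3 and 4 CONTROL embryos had no read. Neither was past the threshold with TMM, and the IAPEz-int copy was not without LOF 7 and LOF 11 either. They were no longer past it in 12 and 13 of 18 fits that left out 1 embryo.

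The most read internal insertions went in both directions and none passed. IAPA_MM-int_dup80, with 136 reads, was at 0, 0 and 8.45 normalized counts in LOF and 0, 3.37 and 26.9 in CONTROL, a log2 fold change of −1.75 ± 1.03 (SE). CONTROL 9 held 48.5% of its reads, and the groups overlapped. IAPEz-int_dup6014 was at 0, 1.45 and 13.2 in LOF and 0, 0 and 3.37 in CONTROL (log2 fold change 2.35 ± 1.10, SE). IAPEy-int_dup198 was at 0, 2.93 and 27.0 in LOF, highest in LOF 10, and 0, 1.36 and 3.71 in CONTROL (log2 fold change 1.82 ± 0.98, SE, edgeR adjusted p = 0.235). IAPEY4_I-int_dup69 and IAPLTR3-int_dup187 had log2 fold changes of 0.83 and −0.18, with adjusted p of 0.622 and 0.927 (edgeR).

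Set beside other TE insertions that met the same rule, the median IAP insertion, at −0.52, lay close to that of other ERVK copies and above that of ORR1A copies, and 6.54% of the IAP insertions passed. ERVK insertions not named IAP had a median of −0.51 over 2278, and 12.2% passed. ORR1A0 and ORR1A1 LTRs, MaLR elements of the ERVL class, had a median of −1.68 over 1240, and 27% passed, 334 of 335 lower. MT2_Mm, the LTR of MERVL, had a median of 0.35 over 2063 with 4.22% passing, 33 lower and 54 higher, and MERVL-int had −0.17 over 1046 with 0.956% passing. Over all 40760 TE insertions the median was −0.69 and 12.5% passed. By depth, of TE insertions with 5 to 50 reads 10.8% passed, against 7.02% of the 242 IAP insertions in that range, and of those with over 50 reads 15.1% passed, against 5.06% of 79 IAP insertions. The middle 50% of IAP LTR insertions, −1.55 to 0.46, overlapped that of every other group, and no test of the difference between groups of insertions was made. In every group the rule also lets in insertions read only or mainly in LOF or in CONTROL embryos. The shares that passed are therefore a description and no support for a difference.

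The share of annotated copies that met the rule is a description of the rule's outcome. It was 1.08% for all IAP copies, 2.04% for the LTRs and 0.199% for the internal parts, beside 0.74% for other ERVK copies, 18.3% for ORR1A0 and ORR1A1 LTRs, 39% for MERVL-int, 74.3% for MT2_Mm and 1.05% for all TE copies. How copy length bears on these shares was not tested. A further 1175 IAP LTR copies and 1047 internal copies had reads in a single embryo.

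**Figure D5:**
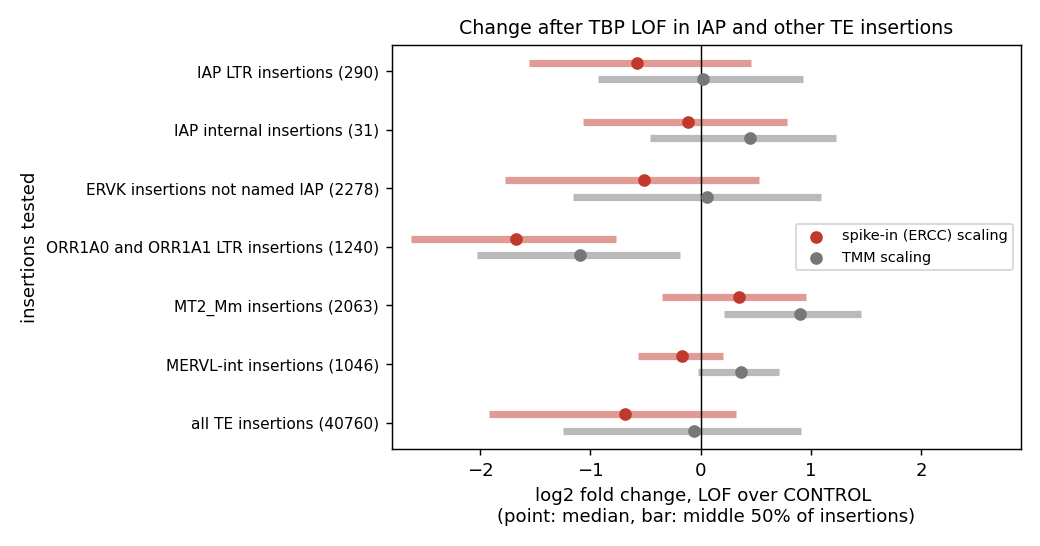
Median (point) and middle 50% (bar) of the log2 fold change in TBP LOF over CONTROL embryos for IAP insertions and other TE insertions that met the same rule, with spike-in scaling in red and TMM in grey; the number tested is in parentheses. IAP LTRs stand at −0.58 and ORR1A0 and ORR1A1 LTRs at −1.68 with spike-ins, and the point of every group lies further right with TMM.

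Genes known to act in the silencing of IAP or of other retrotransposons were next described from a list of 26, of which 25 were measured. With spike-ins 12 were lower and none higher, where the background was 31.1% (29.7% lower and 1.34% higher). The median log2 fold change of the list was −0.87, against −0.72 over all genes and families. Resf1 (0.23), Suv39h2 (0.12), Suv39h1 (−0.17), Daxx (−0.32), Atrx (−0.48), Kdm1a (−0.52), Zfp57 (−0.57) and Morc3 (−0.67) did not pass. With TMM 3 were lower, Zfp989, Chaf1b and Mphosph8, and 2 were higher, Resf1 and Suv39h2. The background was 25.5% (12.7% lower and 12.8% higher), and the median of the list was −0.11, against 0.11 over all genes and families. Without LOF 7 and LOF 11, 9 were lower, where 24.6% of all features were lower. How these genes moved with IAP reads across embryos was not tested.

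The KRAB zinc finger gene Zfp989 had the largest fall of the list. It ranged from 0 to 12.3 normalized counts in LOF and from 27.1 to 46.7 in CONTROL, and the groups did not overlap. The means were 4.09 ± 3.96 (SD, n = 9) and 34.0 ± 6.91 (SD, n = 9), a log2 fold change of −3.01 ± 0.47 (SE, edgeR adjusted p = 1.10e-06). Zfp600, another KRAB zinc finger gene, had a log2 fold change of −1.88 (edgeR adjusted p = 9.52e-04), and the CONTROL median exceeded 8 of 9 LOF embryos. Zfp708 was at −1.51 and did not pass (edgeR adjusted p = 0.0719), although it did in DESeq2 with the same spike-in scaling (adjusted p = 0.0414).

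Trim28, the corepressor that KRAB zinc finger proteins recruit, ranged from 20.5 to 138 in LOF and from 94.8 to 223 in CONTROL. Its means were 57.0 ± 35.2 (SD, n = 9) and 138 ± 37.6 (SD, n = 9), a log2 fold change of −1.29 ± 0.32 (SE, edgeR adjusted p = 0.00108), and the CONTROL median exceeded all 9 LOF embryos. Setdb1, the methyltransferase of histone H3 lysine 9 in this complex, was at −1.16 (adjusted p = 0.0125), and its partner Atf7ip at −0.87 (adjusted p = 0.0323, both edgeR). Atf7ip was at −0.70 without LOF 7 and LOF 11 and did not pass (adjusted p = 0.0655). Chaf1b, a subunit of the histone chaperone CAF-1, ranged from 0.72 to 13.1 in LOF and from 14.4 to 114 in CONTROL without overlap (log2 fold change −2.46 ± 0.45, SE, edgeR adjusted p = 1.43e-05). Its partner Chaf1a was at 31.5 ± 17.1 (SD, n = 9) and 62.1 ± 19.5 (SD, n = 9), also lower (edgeR adjusted p = 0.0216) but not without the same pair of embryos (adjusted p = 0.0587).

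Among DNA methylation genes Dnmt1, the maintenance methyltransferase, was lower at −1.27 (edgeR adjusted p = 0.00181), as was the chromatin remodeller Hells at −1.29 (edgeR adjusted p = 0.00175). Uhrf1, which brings DNMT1 to replicating DNA, was at −0.34 (adjusted p = 0.497), and Dnmt3a, Dnmt3b and Dnmt3l, of the de novo machinery, were at −0.73, −0.055 and −0.41 and did not pass (adjusted p = 0.0524, 0.960 and 0.366, all edgeR). In DESeq2 with the same spike-in scaling Dnmt3a passed (adjusted p = 0.0199). Ehmt1 and Ehmt2, which methylate histone H3 lysine 9, were lower at −1.18 and −1.75, and so was the HUSH subunit Mphosph8 at −1.50 (adjusted p = 0.00214, 0.0137 and 3.21e-04, all edgeR). Ehmt2 did not pass without LOF 7 and LOF 11 (−1.51, adjusted p = 0.0514). With TMM each of the 12 kept its negative sign.

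In the FOXJ3 experiment, IAP was compared at the level of families, with the batch in the model and TMM scaling. None of 25 IAP families passed in edgeR, where 0.0102% of 19518 genes and families did, and none passed in DESeq2, where 0.0205% did. In edgeR 3 families, and in DESeq2 also 3, had an unadjusted p under 0.05, where 5.71% of all features did in edgeR. The median log2 fold change was −0.30 over the 25 families, 18 of them negative, against −0.030 over all features. With spike-in scaling it was −0.096, with 15 negative, against 0.14 over all features. The smallest adjusted p was 0.621.

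IAPEY3C_LTR had the smallest p of the IAP families in FOXJ3 LOF embryos. Its TMM-scaled count was 1.37, 5.49 and 11.2 (lowest, median and highest) in 16 LOF embryos and 1.61, 12.4 and 21.9 in 13 CONTROL embryos, and the groups overlapped. The log2 fold change was −1.17 ± 0.37 (SE), −0.96 within batch 1 and −1.44 within batch 2. After TBP LOF the same family was at −0.33 ± 0.58 (SE) with spike-in scaling and at 0.34 with TMM. IAPLTR2b was at −0.47 (−0.80 and −0.061 within the batches) and IAPEz-int at −0.43 (−0.42 and −0.46). The 3 families lower after TBP LOF were at −0.097 (IAP1-MM_LTR), −0.47 (IAPLTR1a_Mm) and −0.30 (IAPLTR2_Mm) after FOXJ3 LOF with TMM, and at −0.030, −0.29 and −0.096 with spike-in scaling. The difference between batches passed for no IAP family after adjustment, and for IAPLTR2a the fold change was −0.79 in batch 1 and 0.34 in batch 2 (edgeR adjusted p = 0.554).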

How the data were processed

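The authors aligned 5′ reads (read 2) with STAR 2.7.11a to GRCm38 and deposited whole-number estimated counts per embryo, from TEcount for genes and TE families and from TElocal for genes and single TE insertions. How reads mapping to several copies were shared, and the strand setting, were not given in the sources used here; near-identical IAP copies can share reads, so single-insertion counts are uncertain. Embryos with at least 500000 counted reads, 1000 detected genes, at most 10% mitochondrial and 15% ERCC reads were kept. Features read in 25% or more of the embryos were tested with edgeR 4.0.16 quasi-likelihood fits (R 4.3.3) on each whole table, LOF against CONTROL, with ERCC size factors for TBP and TMM plus batch for FOXJ3. P-values were Benjamini-Hochberg adjusted over the table; the threshold was 0.05. An SE is the log2 fold change divided by the root of F. In a test on simulated counts, 200 well expressed features were changed by 2 on the log2 scale. The insertion fit recovered 16.5% of them and the family fit 86.5%. With 200 changed of 59208 features in the insertion fit, against 9068 called in the data, the adjusted threshold was stricter in the simulation. The changed features were also read more deeply than most IAP insertions, so these shares are no recovery rates for IAP insertions. An insertion that did not pass may still have changed. Named insertions were the 5 with the largest mean normalized count in each part and the 5 with the smallest adjusted p past the threshold in each part and direction; all families with reads were described. Members and lists, including the 26 silencing genes, were chosen with earlier results of these data known. Gm21082, in that list, was not analysed here. Alternatives were TMM, DESeq2 1.42.0, other filters, a replicate block and leaving out embryos. The labels give 9 LOF and 10 CONTROL embryos, and were followed.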

Additional observations from a re-analysis of the deposited data

Results flagged for a closer look

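In groups of 9 embryos, the gap between the most extreme embryo and its nearest neighbour was set against Dixon's 95% limit of 0.493, over 102 groups of IAP quantities. Chance alone passes about 1 group in 20, and 8 passed. LOF 6 stood apart in the IAP share of counted reads, at 0.159%, with a gap of 0.565 of the LOF range. Among family counts (log2 scale), CONTROL 3 was low for IAPEY3C_LTR at 1.81 normalized counts (0.508), CONTROL 2 was low for IAPLTR3 at 1.35 (0.568) and CONTROL 6 was at 0 for IAPLTR4 (0.595). Among insertions, LOF 9 was high for IAPLTR1a_Mm_dup423 at 0.73 (0.606). A single embryo of its group held all the reads, which gives a gap of 1, in LOF 7 for IAP1-MM_I-int_dup290 (1.23), in LOF 5 for IAPEz-int_dup4657 (1.22) and in CONTROL 2 for IAPLTR1_Mm_dup965 (1.35). Each of the last 4 values rests on 1 or 2 reads, and the cause of none was tested.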

How the results depend on the processing

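The single LTR insertions had a median of 24.5 reads in 18 embryos, and how depth bears on the calls was not tested. The 19 LTR insertions past the threshold became 10 with TMM, 10 with DESeq2's size factors, 8 in DESeq2, 7 without LOF 7 and LOF 11 (chosen after seeing the data), 66 of 2112 without the filter on low counts, of which 52 were read in 1 to 4 embryos, and 0 with filterByExpr, which left 1 IAP LTR insertion to test. The 2 internal insertions became 0, 0, 0 and 1, then 9 of 1485 without the filter, none of them meeting the rule, and 0 with filterByExpr, which left none to test. Leaving out 1 embryo gave 11 to 24 LTR insertions (11 without LOF 11) and 0 to 2 internal ones. The 3 families became 1 without LOF 7 and LOF 11 and 1 to 6 when 1 embryo was left out. Of the silencing genes 12 passed, all lower; 5 passed with TMM (3 lower, 2 higher), 6 in either direction with DESeq2's size factors, 14 in DESeq2 with spike-in scaling and 10 to 15 when 1 embryo was left out. The FOXJ3 count was 0 in every fit.

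The labels do not say that a replicate number shared by LOF and CONTROL marks a common collection. Over 7 numbers (14 embryos) the correlation of deviations was −0.05 to 0.16, and 0 of 7 embryo pairs correlated best with their own number. With the replicate block 2 LTR insertions, 0 internal insertions, 2 families and 11 silencing genes passed; in the same 14 embryos without the block, chosen after seeing the data, it was 6, 0 and 2.

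The log2 ratio of IAP reads per embryo turned to 0.23 for LTRs and 0.36 for internal parts with TMM, and was −0.77 to −0.44 and −0.65 to −0.29 when 1 embryo was left out. Families below 0 with spike-ins turned above 0 with TMM (DESeq2's size factors second): IAP1-MM_I-int 0.36 and 0.30, IAPA_MM-int 0.32 and 0.28, IAPEY2_LTR 0.30 and 0.24, IAPEY3C_LTR 0.34 and 0.25, IAPEY4_I-int 0.28 and 0.20, IAPEz-int 0.21 and 0.15, IAPLTR2a 0.47 and 0.40, IAPLTR2b 0.12 and 0.058, IAPLTR3-int 0.48 and 0.42, IAPLTR4 0.73 and 0.66, and IAPLTR1_Mm 0.030 with TMM. Among insertions IAPLTR2a2_Mm_dup1030 turned to 0.42 and 0.40 and IAPLTR3-int_dup187 to 0.26 and 0.24. The replicate block turned IAPLTR4 to 0.32, IAPLTR1a_Mm_dup911 to −0.12, IAPLTR2a_dup219 to −0.29 and IAPLTR3-int_dup187 to 0.084; the same 14 embryos gave 0.31 and 0.37 for IAPLTR4 and IAPLTR3-int_dup187. Without LOF 7 and LOF 11, IAPLTR4 was 0.27, IAPLTR3-int 0.0054 and IAPLTR3-int_dup187 0.11. Leaving out 1 embryo moved across 0 IAP-d-int (−0.058 to 0.38), IAPEY3_LTR (−0.11 to 0.49), IAPEY5_LTR (−0.059 to 0.69), IAPLTR2a2_Mm (−0.12 to 0.24), IAPLTR4 (−0.32 to 0.20), IAPLTR1a_Mm_dup911 (−0.077 to 0.44), IAPLTR2a_dup219 (−0.10 to 0.71), IAPLTR2b_dup294 (−0.20 to 0.24), IAPLTR3-int_dup187 (−0.71 to 0.13) and, after FOXJ3 LOF, IAP1-MM_LTR (−0.21 to 0.072). The cause of these changes was not tested.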
